A study of Mus musculus with 16 samples.

Results

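The choroid plexus genes described here are 10 genes used as markers of choroid plexus epithelium, namely Ttr, Kl, Folr1, Clic6, Kcne2, Kcnj13, Aqp1, Slc4a5, Otx2 and Enpp2. They were found by symbol among the 39179 gene identifiers of the count table, and all 10 were matched. The series holds RNA-seq of 16 mouse brain libraries in 4 groups of 4: wild-type mice at 3 months (mice 9 to 12), homozygous Mrps5 V338Y mice at 3 months (mice 13 to 16), wild-type mice at 19 months (mice 12 to 15) and homozygous Mrps5 V338Y mice at 19 months (mice 17 to 20). V338Y is a C57BL/6 knock-in allele in Mrps5, which encodes a small-subunit protein of mitochondrial ribosomes, and it makes them misread. The allele is present in every cell, so no promoter or Cre line limits it, and the wild-type controls carry no other labelled allele. The labels give the tissue as brain, and the study's methods give it as cortex, taken from a brain that was divided into cortex and cerebellum. A point mutation cannot be checked in counts per gene. The same mouse numbers at the 2 ages belong to different groups, so a mouse is always named here together with its age and genotype.

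The choroid plexus is a folded sheet of epithelium around a core of vessels, hanging in the ventricles of the brain. Its cells secrete most of the cerebrospinal fluid by moving sodium, bicarbonate, chloride, potassium and water across the epithelium, and their tight junctions form the barrier between blood and that fluid. They also release carrier proteins and hormones into it. Cerebral cortex itself holds no choroid plexus, but the lateral ventricle lies beneath it. The genes were read as a measure of how much choroid plexus RNA each library held. They do not tell which ventricle that RNA came from. In bulk RNA, fewer choroid plexus cells and less RNA per cell cannot be told apart.

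Promoters of 3 members are shown first. Whether promoter sequence had a part in the members' levels was not tested. The RefSeq promoter table of build GRCm38.p6 had entries for 6 of the 10 members (Kl, Kcne2, Kcnj13, Aqp1, Slc4a5 and Otx2), in 10 windows of 250 bases before an annotated start. The 3 windows printed here, for a co-receptor, a potassium channel subunit and a potassium channel, hold no annotated exon base. They lie at chr5:150952357-150952606 on the plus strand (Kl), at chr16:92292139-92292388 on the plus strand (Kcne2, the upstream of its 2 starts) and at chr1:87394730-87394979 on the minus strand (Kcnj13). Each is written 5′ to 3′ along its gene and ends at the base before the start.
Kl: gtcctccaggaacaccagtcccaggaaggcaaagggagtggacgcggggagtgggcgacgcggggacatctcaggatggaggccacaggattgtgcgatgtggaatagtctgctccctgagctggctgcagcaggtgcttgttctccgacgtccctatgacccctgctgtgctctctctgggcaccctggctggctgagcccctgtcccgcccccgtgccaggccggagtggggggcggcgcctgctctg
Kcne2: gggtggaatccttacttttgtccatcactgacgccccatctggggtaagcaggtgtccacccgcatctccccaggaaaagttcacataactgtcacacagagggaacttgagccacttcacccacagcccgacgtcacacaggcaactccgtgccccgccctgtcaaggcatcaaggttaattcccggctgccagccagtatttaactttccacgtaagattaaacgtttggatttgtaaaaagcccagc
Kcnj13: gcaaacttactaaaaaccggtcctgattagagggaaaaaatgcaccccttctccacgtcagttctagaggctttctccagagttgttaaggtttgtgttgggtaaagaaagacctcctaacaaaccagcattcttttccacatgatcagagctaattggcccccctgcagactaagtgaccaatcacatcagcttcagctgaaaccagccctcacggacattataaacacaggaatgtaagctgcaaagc
OTX2, the product of 1 of the members, is a homeodomain protein that binds TAATCC. That motif was searched on both strands, that is as TAATCC or GGATTA, and matches would stand in capitals. None of the 3 windows printed held it, and 1 of the 10 windows of the members did, a window of Otx2 itself that lies within annotated Otx2 exon sequence. Among all 32851 promoters of the same length 6.25% held the motif, as did 4.08% of 49 windows of a wider choroid plexus list. A missing match says only that these letters were not in the window.

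Some properties of the libraries bear on the comparisons. Total counts ranged from 6181448 to 19601664 per library. All 8 libraries at 3 months held transcripts of the 4 Y-linked genes examined (Ddx3y at 99.8 to 128 CPM) and Xist at 0.448 to 1.23 CPM, whereas all 8 at 19 months had 0 counts of those Y-linked genes and Xist at 715 to 1169 CPM. These transcripts read as male at 3 months and as female at 19 months, whereas the study's methods describe females at both ages. Age and sex therefore cannot be told apart here. Titles of the 8 libraries at 19 months also end in -N, and those at 3 months do not. The titles do not say what this ending marks, and it cannot be told apart from age either. Every age comparison below carries both limits. CPM means counts per 1000000 counts of a library, scaled by edgeR's TMM factors. Markers of cerebellum (8 genes, summed) were at 593 to 982 CPM in wild-type and 198 to 1376 CPM in V338Y mice at 3 months, with V338Y mouse 14 the lowest, and at 129 to 152 CPM in the 8 libraries at 19 months. Endothelial markers (10 genes, summed) were at 315 to 329.9 CPM at 3 months and at 1255 to 1474 CPM at 19 months. Meningeal markers (13 genes) were at 133 to 188 and 374 to 506 CPM at the same ages. Markers of cortex (10 genes) were present in all 16 libraries, at 881 to 1133 CPM, with the glutamate transporter gene Slc17a7 at 427 to 568 CPM. Other tissues share some of the members. Markers of the pigment epithelium of the eye, which also uses Ttr, Kcnj13 and Otx2 (5 genes, summed), were at 12.4 to 17.95 CPM in wild-type and 6.45 to 15.3 CPM in V338Y mice at 3 months, and at 21.02 to 22.1 and 21.3 to 24.5 CPM at 19 months. Most of that sum was Rlbp1, at 5.58 to 19.9 CPM over the 16 libraries, whereas Rpe65 was at 0.29 to 3.29 CPM and Rgr at 0 to 0.123 CPM. Markers of the pineal gland, which uses Otx2, and of the pituitary (8 genes, summed) were at 1.47 to 3.11 CPM in the 8 libraries at 3 months, and at 75.01 to 113 CPM in wild-type and 22.02 to 73.95 CPM in V338Y mice at 19 months. The pineal genes Asmt and Crx reached at most 0.213 and 0.173 CPM. The pituitary hormone gene Prl was at 13.7 to 92.8 CPM at 19 months and at most 0.173 CPM at 3 months. The part of these tissues, cerebellum among them, in the members' levels was not tested.

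Ttr, Kl and Enpp2 encode the secreted products among the members. Ttr encodes transthyretin, which carries thyroxine and retinol-binding protein and is the classic marker of this epithelium. The gene (ENSMUSG00000061808) lies at chr18:20665280-20674321 on the plus strand of GRCm38. At 3 months Ttr was at 557, 520.2, 584 and 332 CPM in the wild-type mice and 477, 337, 299 and 709 CPM in the V338Y mice. At 19 months it was at 896, 395, 431 and 189 CPM in the wild-type mice and 2087, 2098, 129 and 225 CPM in the V338Y mice. Here and for every gene the values of a group are given in the order of the mouse numbers. V338Y mice 17 and 18 thus stood above every other library, mouse 19 below every other library and mouse 20 just above the lowest wild-type mouse of its age. At 3 months the highest mouse exceeded the lowest 1.76-fold among the wild-type and 2.37-fold among the V338Y mice. At 19 months these ratios were 4.75 and 16.3. In deposited counts this last group ran from 2438 (mouse 19) to 32070 (mouse 18), so counting error was a small part of that spread.

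Kl encodes klotho, a co-receptor for FGF23 whose shed form enters the cerebrospinal fluid (ENSMUSG00000058488, chr5:150952607-150993817, plus strand). At 3 months Kl was at 19.3, 15.7, 18.3 and 13.9 CPM in the wild-type mice and 16.3, 14.3, 12.6 and 23.7 CPM in the V338Y mice. Its 19-month values were 33.9, 18.6, 19.8 and 10.2 CPM in the wild-type mice and 48.6, 48.8, 9.63 and 15.04 CPM in the V338Y mice. V338Y mice 17 and 18 were the 2 highest of the 16 and V338Y mouse 19 the lowest, and the groups overlapped. Enpp2 encodes autotaxin, the secreted enzyme that makes lysophosphatidic acid, and oligodendrocytes make it too (ENSMUSG00000022425, chr15:54838901-54952892, minus strand). At 3 months Enpp2 was at 536, 488, 543 and 439 CPM in the wild-type mice and 542, 428, 354.4 and 605 CPM in the V338Y mice. The level of Enpp2 at 19 months was 824, 500.03, 565 and 459 CPM in the wild-type mice and 1042, 1346, 440.2 and 465 CPM in the V338Y mice. Enpp2 had the narrowest range of the members, 3.799-fold over the 16 mice, and within V338Y mice at 19 months mice 17 and 18 were above 19 and 20, as for the other members. Oligodendrocyte markers (10 genes, summed) ranged 1.14-fold within that group. Enpp2 shares 345 exon bases with Gm26684 on the opposite strand, whose level was not taken.

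Folr1 encodes folate receptor alpha, through which the choroid plexus brings folate into the cerebrospinal fluid (ENSMUSG00000001827, chr7:101858331-101870788, minus strand). At 3 months Folr1 was at 4.42, 4.99, 5.102 and 4.23 CPM in the wild-type mice and 4.35, 3.903, 2.68 and 6.38 CPM in the V338Y mice. By 19 months Folr1 was at 9.63, 4.498, 4.79 and 2.47 CPM in the wild-type mice and 19.6, 22.6, 1.96 and 3.23 CPM in the V338Y mice. Wild-type mouse 12 was the highest and wild-type mouse 15 the lowest of their group at 19 months, and V338Y mice 17 and 18 exceeded both. Folr1 kept the steadiest proportion to Ttr of any member. It gave 7.95 to 15.2 counts per 1000 Ttr counts, a 1.91-fold range, while its own level ranged 11.5-fold.

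The next 5 members encode channels and transporters of the epithelium. Clic6 encodes a chloride intracellular channel protein (ENSMUSG00000022949, chr16:92485736-92541243, plus strand). Clic6 at 3 months was at 17.3, 13.9, 16.6 and 13.03 CPM in the wild-type mice and 15.5, 10.2, 12.3 and 20.8 CPM in the V338Y mice. At the later age Clic6 was at 20.6, 11.9, 12.7 and 6.58 CPM in the wild-type mice and 28.8, 36.05, 7.99 and 11.7 CPM in the V338Y mice. Its lowest value of the 16 was in wild-type mouse 15 at 19 months and its highest in V338Y mouse 18. Kcne2 encodes a small regulatory subunit of potassium channels of the apical membrane (ENSMUSG00000039672, chr16:92292389-92298129, plus strand). Kcne2 at 3 months was at 3.81, 3.26, 3.67 and 3.797 CPM in the wild-type mice and 3.899, 1.52, 1.23 and 4.47 CPM in the V338Y mice. Its values at 19 months were 6.18, 2.86, 3.405 and 1.48 CPM in the wild-type mice and 8.86, 14.5, 0.794 and 1.18 CPM in the V338Y mice. Kcne2 had the widest range of all members, 18.3-fold, but also the lowest counts, down to 9 in wild-type mouse 15 at 19 months (95% Poisson interval 4.12 to 17.1 counts, which covers counting error only).

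Kcnj13 encodes the inward rectifier potassium channel Kir7.1 of the apical membrane (ENSMUSG00000079436, chr1:87386363-87394729, minus strand). Kcnj13 at 3 months was at 3.81, 4.72, 5.91 and 4.83 CPM in the wild-type mice and 6.39, 3.24, 3.33 and 6.68 CPM in the V338Y mice. At the later age Kcnj13 was at 15.3, 7.36, 8.62 and 4.28 CPM in the wild-type mice and 16.3, 24.7, 5.03 and 3.79 CPM in the V338Y mice. In the wild-type mice 3 of the 4 values at 19 months lay above the whole 3-month range, and mouse 15 lay within it. Of the 1270 exon bases of Kcnj13, 623 are shared with Gigyf2 on the opposite strand, and Gigyf2 was at 112 to 136 CPM over the 16 mice, while Kcnj13 ranged 7.62-fold.

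Aqp1 encodes the water channel aquaporin 1 of the apical membrane (ENSMUSG00000004655, chr6:55336432-55348555, plus strand). Aqp1 at 3 months was at 6.39, 6.65, 4.65 and 5.01 CPM in the wild-type mice and 6.52, 5.17, 4.64 and 6.97 CPM in the V338Y mice. The 19-month levels were 6.82, 4.83, 4.26 and 5.103 CPM in the wild-type mice and 14.4, 16.1, 1.7999 and 3.05 CPM in the V338Y mice. Outside the V338Y mice at 19 months Aqp1 varied little, with every one of the other 12 mice between 4.26 and 6.97 CPM. Slc4a5 encodes a sodium bicarbonate cotransporter of the apical membrane (ENSMUSG00000068323, chr6:83219828-83304945, plus strand). Slc4a5 at 3 months was at 4.92, 3.79, 4.65 and 2.16 CPM in the wild-type mice and 3.64, 1.62, 3.12 and 5.84 CPM in the V338Y mice. At 19 months Slc4a5 was at 6.58, 3.35, 4.15 and 2.47 CPM in the wild-type mice and 11.2, 12.2, 1.27 and 2.49 CPM in the V338Y mice. As for Ttr, V338Y mice 17 and 18 held the 2 highest values of Slc4a5 and V338Y mouse 19 the lowest.

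Otx2 encodes the homeobox transcription factor that choroid plexus epithelium needs to form and to be maintained (ENSMUSG00000021848, chr14:48657677-48673819, minus strand). At 3 months Otx2 was at 3.81, 5.12, 6.53 and 4.83 CPM in the wild-type mice and 5.82, 5.63, 4.35 and 5.72 CPM in the V338Y mice. At 19 months it was at 4.65, 2.78, 2.77 and 2.798 CPM in the wild-type mice and 9.26, 7.33, 2.81 and 2.24 CPM in the V338Y mice. Wild-type mice 13, 14 and 15 at 19 months lay within 2.77 to 2.798 CPM, below all 8 mice of 3 months, as did V338Y mice 19 and 20 of 19 months, while wild-type mouse 12 and V338Y mice 17 and 18 lay within or above the 3-month values. Otx2 shares 154 exon bases with Otx2os1 on the opposite strand, which had 0 to 15 counts per library. It shares 168 with Gm49154 on its own strand, whose level was not taken.

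**Figure D1:**
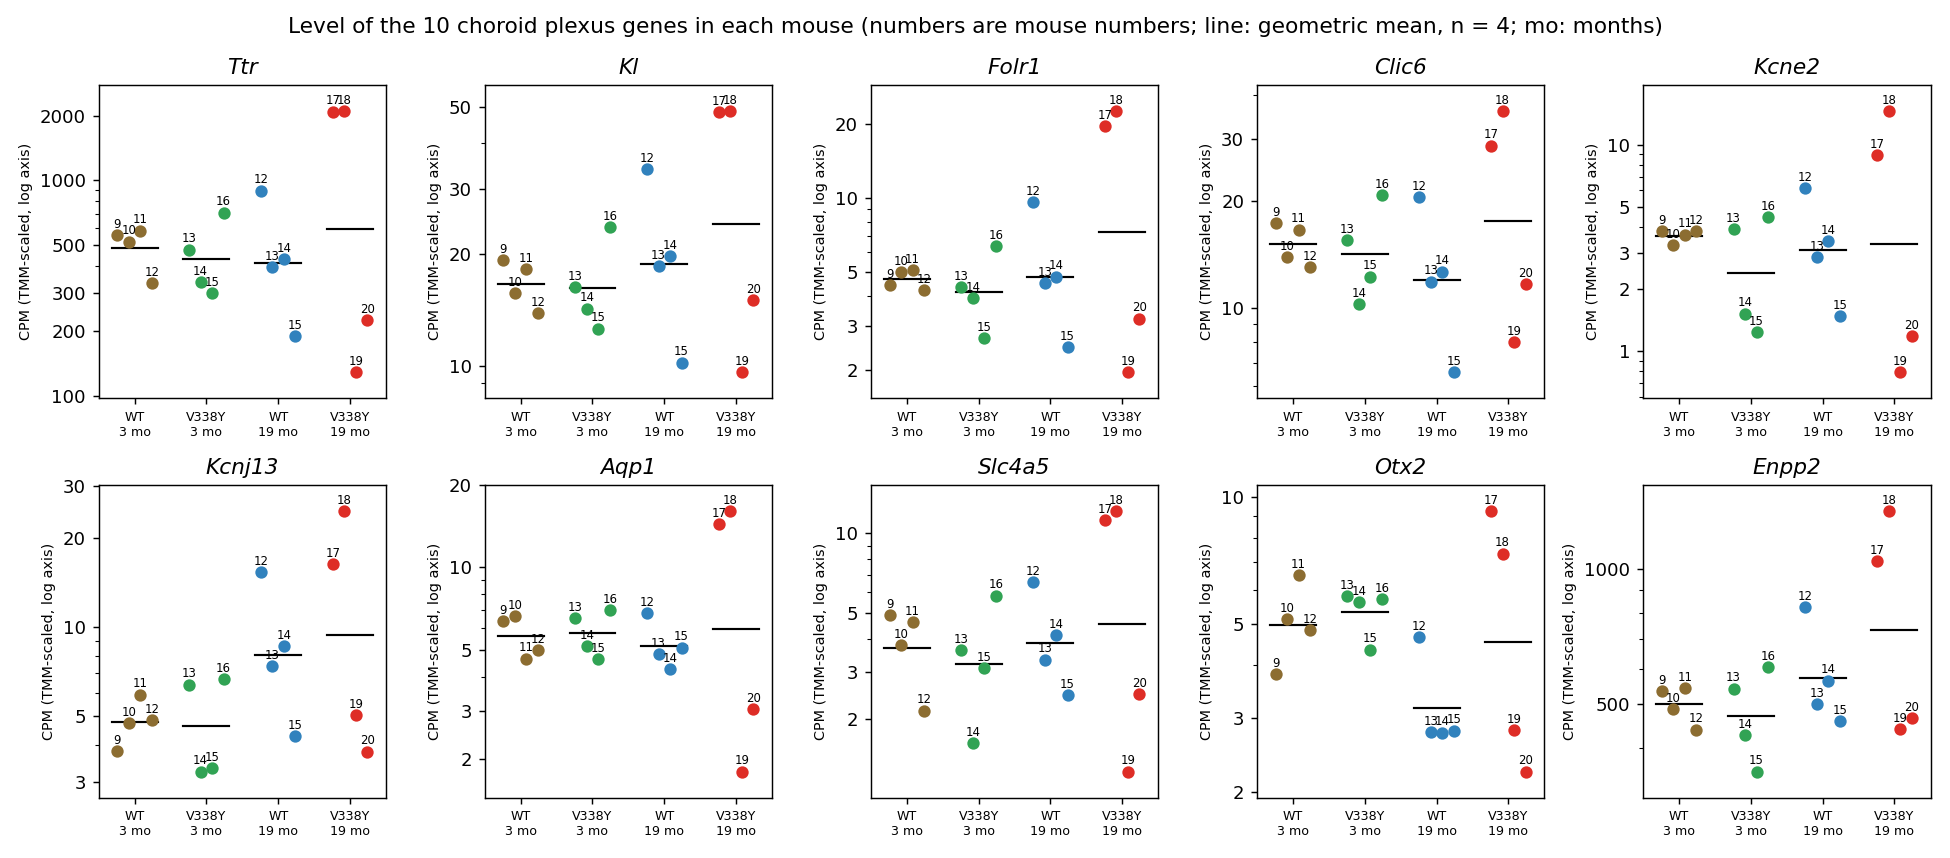
Level of each choroid plexus gene in CPM (TMM-scaled, log axis) for the 16 mice, 1 panel per gene, with points numbered by mouse and a line at the geometric mean of each group of 4. V338Y mice 17 and 18 at 19 months are the 2 highest points in all 10 panels, and the V338Y mice at 3 months span a narrower range than those at 19 months.

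The genes differed widely in level when compared per kilobase of exon sequence. In wild-type mice at 3 months Ttr was at 420.1 ± 95.9 CPM per kilobase (mean and SD, n = 4) and Enpp2 at 86.8 ± 8.34. The ranges of these 2 genes did not overlap in any group but V338Y at 19 months. The other 8 members followed far below them, from 3.89 ± 0.532 CPM per kilobase for Clic6 and 3.79 ± 0.676 for Kcnj13 through 2.16 ± 0.378 for Aqp1, 2.06 ± 0.146 for Kcne2, 2.04 ± 0.185 for Folr1 and 1.8 ± 0.263 for Kl to 1.202 ± 0.266 for Otx2 and 0.668 ± 0.214 for Slc4a5. Clic6 and Kcnj13 overlapped, as did Aqp1, Kcne2, Folr1 and Kl, so neighbours within those sets did not differ beyond their spread, and Kl also overlapped Otx2. At 19 months Kcnj13 had the higher mean of the pair with Clic6, at 7.005 ± 3.67 against 3.304 ± 1.48 CPM per kilobase in wild-type and 9.82 ± 7.82 against 5.396 ± 3.44 in V338Y mice, with overlapping ranges in both genotypes.

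Within a group the members mostly rose and fell together from mouse to mouse, less so in wild-type mice at 3 months. The geometric mean of the 10 members summarises this. At 3 months it was 15.8, 15.3, 16.8 and 13.004 CPM in wild-type mice 9 to 12 and 16.1, 11.1, 10.5 and 20.2 CPM in V338Y mice 13 to 16. At 19 months it was 25.4, 13.7, 14.9 and 9.26 CPM in wild-type mice 12 to 15 and 41.2, 47.8, 7.22 and 9.61 CPM in V338Y mice 17 to 20. The ratio of the highest to the lowest mouse was thus 1.296 and 1.92 at 3 months and 2.74 and 6.62 at 19 months, in wild-type and V338Y mice respectively. V338Y mice 17 and 18 exceeded the whole wild-type range of their age for 10 of 10 members. V338Y mouse 19 was below that range for 7 of 10 and within it for Clic6, Kcnj13 and Otx2, and V338Y mouse 20 was below it for 4 of 10 (Kcne2, Kcnj13, Aqp1 and Otx2). At the same age wild-type mouse 12 was the highest of its group for 10 of 10 members and wild-type mouse 15 the lowest for 8 of 10. Among V338Y mice at 3 months, 13 and 16 were the 2 highest and 14 and 15 the 2 lowest for 10 of 10. In wild-type mice at 3 months the order was less uniform, with mouse 11 the highest for 5 of 10 and mouse 12 the lowest for 6 of 10.

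**Figure D2:**
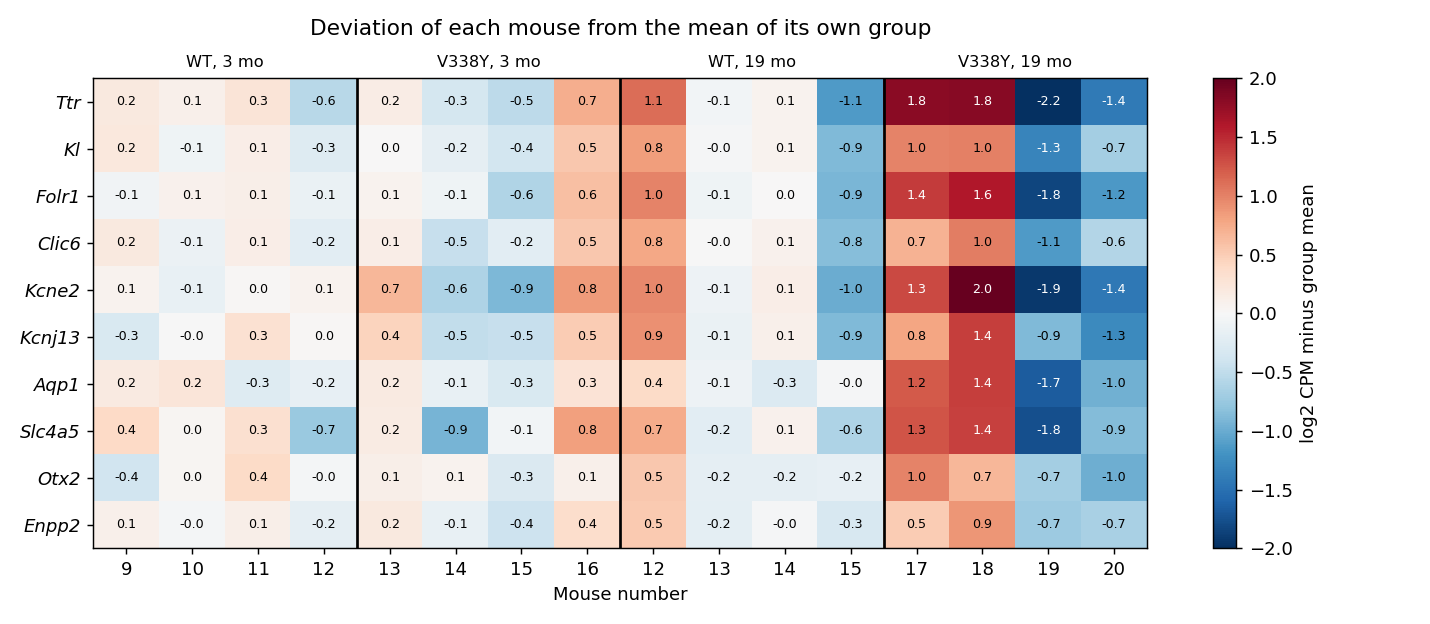
Deviation of each mouse from the mean of its own group, in log2 CPM, for the 10 choroid plexus genes (rows) and 16 mice (columns, in blocks by group; red above and blue below the group mean). Columns are mostly of 1 colour, deepest in the V338Y mice at 19 months, where mice 17 and 18 are above and mice 19 and 20 below the group mean for all 10 genes.

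As a description, the deviation of each mouse from its group mean in log2 CPM was correlated over the 16 mice between each member and the mean of the other 9. Pearson's r was 0.991 for Ttr, 0.987 for Folr1, 0.975 for Enpp2, 0.975 for Kcne2, 0.974 for Kl, 0.964 for Clic6, 0.934 for Slc4a5, 0.933 for Kcnj13, 0.912 for Aqp1 and 0.867 for Otx2. The values of a mouse come from 1 library and share its depth and scaling. Without the 4 V338Y mice at 19 months, over 12 mice, r was 0.972 for Ttr, 0.799 for Slc4a5 and 0.613 for both Aqp1 and Otx2, and between 0.918 and 0.956 for the other 6. Taken over these 12 mice, the members thus also moved together, least so Aqp1 and Otx2. This r pools the groups and does not show it for each one. In wild-type mouse 12 of 3 months Ttr and Slc4a5 deviated by -0.55 and -0.74, but Kcne2 and Kcnj13 by 0.064 and 0.021.

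The members did not change in equal proportion. Per 1000 Ttr counts, Kl gave 23.3 counts in V338Y mouse 17 and 23.3 in mouse 18, but 74.7 in mouse 19 and 66.9 in mouse 20. Enpp2 gave 499, 642, 3411 and 2071 in the same mice. Both proportions were higher in the mice with less Ttr. Ttr is the divisor, so a gene that varies less than Ttr gives such a rise by itself. Kcne2 gave 4.24, 6.92, 6.15 and 5.26 in the same mice. Over all 16 mice the proportion to Ttr ranged 1.91-fold for Folr1, 2.72-fold for Slc4a5, 2.77-fold for Kcne2, 3.21-fold for Kl, 3.91-fold for Aqp1, 4.49-fold for Clic6, 5.69-fold for Kcnj13, 6.22-fold for Otx2 and 6.83-fold for Enpp2.

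The genes most like the members in pattern were sought among the 16545 genes that reached 10 counts in 2 or more mice of any group, by the same correlation with the mean of the 10 members. The 10 with the highest r were Prr32, F5, Mfrp, Slc4a2, Col8a2, Tmem72, Col8a1, Cldn2, Col9a3 and Lbp, with r from 0.959 to 0.973 over 16 mice and from 0.822 to 0.951 over the 12 without V338Y at 19 months. Of these, 7 stand in a wider list of choroid plexus genes, which includes Cldn2, a tight junction claudin, Slc4a2, the basolateral anion exchanger, and F5, coagulation factor V. In V338Y mice 17 to 20 at 19 months F5 was at 18.01, 18.5, 4.76 and 4.599 CPM and Prr32 at 2.39, 2.75, 0.106 and 0.249 CPM. Mfrp, a membrane frizzled-related protein, was at 35.2, 38.9, 20.01 and 22.4 CPM in the same mice and at 27.9, 21.5, 22.7 and 17.6 CPM in wild-type mice 12 to 15. These genes were chosen for this likeness, so their values are a description.

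The wider list holds 43 matched genes other than the members. It was chosen with earlier results of these data known, so its likeness to the members is a description. Its median r was 0.87, against -0.0625 for all genes, and 27 of the 43 (62.8%) were above 0.8, against 50 of 16545 genes (0.302%). Over the 12 mice without V338Y at 19 months the median was 0.685, with 13 of 43 (30.2%) above 0.8 against 104 genes (0.629%). No gene of the other marker lists was above 0.8 over 16 mice. The median was 0.114 for 12 ependymal genes, 0.191 for 13 meningeal genes, 0.411 for 10 oligodendrocyte genes, -0.512 for 10 endothelial genes and -0.341 for 10 cortex genes. In the hippocampus list, whose tissue also borders the ventricle, it was -0.0195. The medians for striatum, thalamus, cerebellum, pigment epithelium, pineal and pituitary, and blood lay between -0.396 and 0.0608. Ependyma, which lines the ventricle beside the choroid plexus, thus did not follow the members: its 12 genes summed to 71.5 to 84.3 CPM over V338Y mice 17 to 20, a 1.18-fold range.

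**Figure D3:**
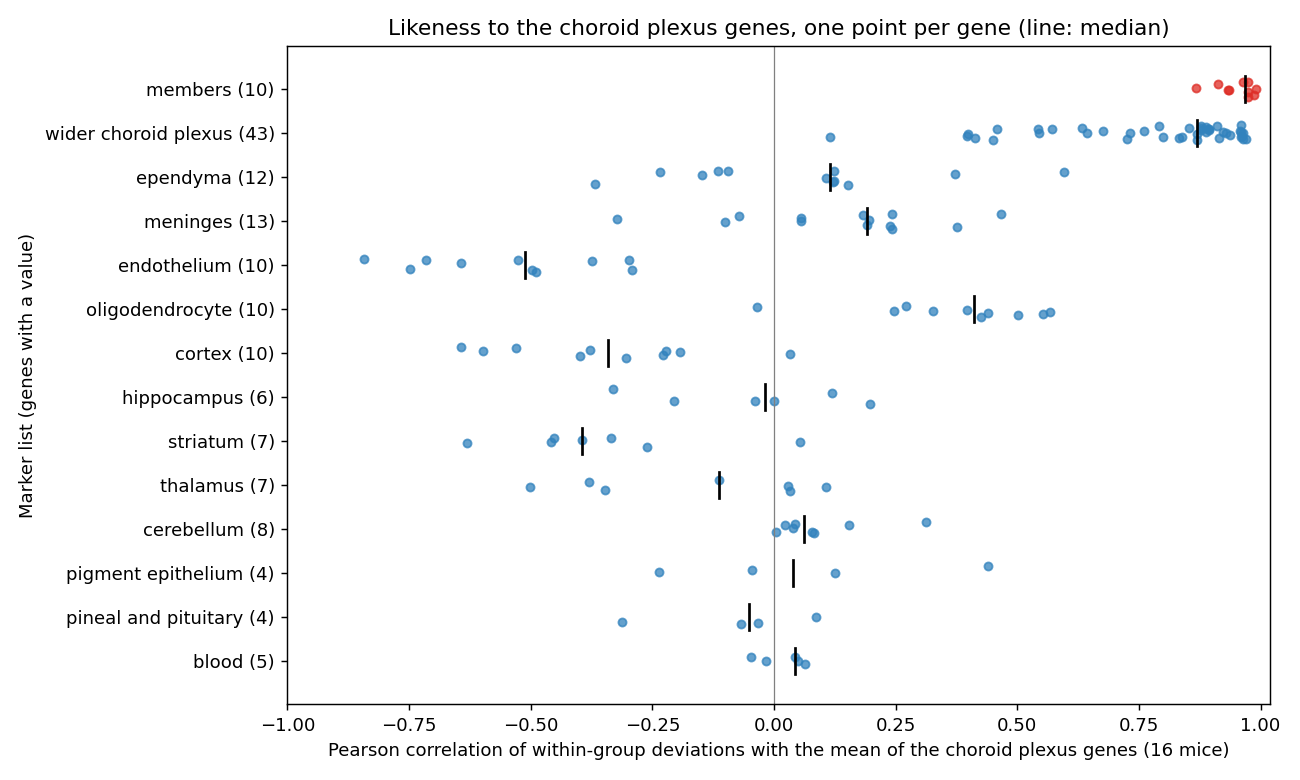
Pearson's r between each gene's deviations from its group means and the mean deviation of the choroid plexus genes over 16 mice, 1 point per gene and 1 row per marker list, with a line at the list's median (for the members, against the other 9). The members and most of the wider choroid plexus list stand above 0.8, and no gene of another list does.

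Wild-type mice of 19 months were compared with those of 3 months to ask how the members changed with age. Otx2 was the only member that passed the test, and it fell. Its log2 fold change was -0.59 (SE 0.19, adjusted p = 0.00968) by edgeR's quasi-likelihood test with Benjamini-Hochberg adjustment over all genes, that is, to 0.667 of the 3-month level. Kcnj13 did not pass, with a log2 fold change of 0.98 (SE 0.37, adjusted p = 0.0547) in the same edgeR test. The remaining 8 did not pass either, with log2 fold changes from -0.11 for Clic6 to 0.42 for Kl, and Ttr at -0.014 with a 95% interval of -1.14 to 1.11. In all, 1 of 10 members was called, where 62.8% of 16101 genes tested were (31.5% lower and 31.4% higher), and 2 of 10 had an unadjusted p under 0.05, where 66.2% of genes did. The median log2 fold change was 0.15 for the members and -0.0050 for all genes. The groups overlapped for 10 of 10 members, whereas they did not overlap for 56.0% of genes. The Otx2 call was lost when all 16 libraries shared 1 fit, with a log2 fold change of -0.60 and a wider SE of 0.42 (edgeR adjusted p = 0.245), and without wild-type mouse 11 of 3 months, at -0.45 with an SE of 0.20 (edgeR adjusted p = 0.0558). Without wild-type mouse 12 of 19 months 3 members were called, with Clic6 at -0.43 (edgeR adjusted p = 0.0255) and Kcnj13 at 0.57 (edgeR adjusted p = 0.00930) beside Otx2, while Kcnj13 joined Otx2 without wild-type mouse 15 of 19 months, by DESeq2, by the likelihood-ratio test and with at least 10 counts required in every library.

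The markers of other tissues that moved between the ages are given in the account of the libraries. Their part in the Otx2 difference was not tested. Cerebellum markers summed to 593, 982, 836 and 945 CPM in wild-type mice 9 to 12 at 3 months. Otx2 was at 3.81, 5.12, 6.53 and 4.83 CPM in the same mice. In wild-type mice 12 to 15 at 19 months the sums were 152, 129, 137 and 129 CPM. Their Otx2 levels were 4.65, 2.78, 2.77 and 2.80 CPM. V338Y mouse 14 of 3 months had 198 CPM of cerebellum markers and Otx2 at 5.63 CPM. V338Y mice 13, 15 and 16 had 1133, 1376 and 1004 CPM of these markers and Otx2 at 5.82, 4.35 and 5.72 CPM.

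The same comparison of ages was made in V338Y mice. No member was called in edgeR's test, where 48.8% of 16770 genes were, and 0 of 10 had an unadjusted p under 0.05, where 55.3% of genes did. DESeq2 and edgeR's likelihood-ratio test also called 0 of 10. The log2 fold changes were positive for 9 of 10, with a median of 0.87 against -0.029 for all genes. Folr1 had the largest, 1.41 (SE 0.87, adjusted p = 0.228) in edgeR's test, with a 95% interval of -0.69 to 3.51. Ttr was next at 1.34 (95% interval -1.07 to 3.74), and Otx2 was at -0.046 (95% interval -1.08 to 0.99). The groups overlapped for 10 of 10 members and did not overlap for 44.7% of genes. V338Y mice 17 and 18 were above the whole V338Y range of 3 months for 10 of 10 members, while mouse 19 was below it for 8 of 10 and mouse 20 for 4 of 10. The wide intervals thus went with mice on both sides of the 3-month range.

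V338Y and wild-type mice were compared at 19 months, the age at which the study sought the effect of the mutation. The members' log2 fold changes were positive for 10 of 10, with a median of 0.58 against -0.00072 for all genes, and none was called in edgeR's test, where 3.12% of 16420 genes were. An unadjusted p under 0.05 was found for 0 of 10, against 16.2% of genes, and DESeq2 and the likelihood-ratio test called 0 of 10. Ttr was at 1.24 (SE 1.05, adjusted p = 0.647) in edgeR's test, with a 95% interval of -1.32 to 3.79. Folr1 was at 0.96 (-1.39 to 3.30), Kcne2 at 0.68 (-1.88 to 3.24) and Enpp2 at 0.47 (-0.62 to 1.57), where parentheses hold the 95% interval. The intervals allowed for Ttr both a fall and a rise of more than 1 on the log2 scale. Without V338Y mouse 18 the log2 fold changes of Kl, Kcne2, Kcnj13 and Slc4a5 turned negative, the lowest being -0.34 for Kcnj13. Mice 17 and 18 were above the wild-type range for 10 of 10 members, and mice 19 and 20 were within or below it for 10 of 10. Groups did not overlap for 8.92% of genes and for 0 of 10 members.

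V338Y and wild-type mice were also compared at 3 months. In edgeR's test 0 of 10 members were called, where 0.0616% of 16241 genes were, and 0 of 10 had an unadjusted p under 0.05, where 5.02% of genes did. DESeq2 and the likelihood-ratio test also called 0 of 10. Log2 fold changes ran from -0.38 for Kcne2 to 0.074 for Otx2, with a median of -0.051 against 0.0048 for all genes. The 95% interval was -0.92 to 0.66 for Ttr, -0.33 to 0.41 for Aqp1 and -1.20 to 0.45 for Kcne2. Groups did not overlap for 3.40% of genes and for 0 of 10 members. The intervals at this age were narrower than at 19 months for 10 of 10 members.

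Whether age acted differently in V338Y and wild-type mice was asked with an interaction term over all 16 libraries. It was positive for 10 of 10 members, with a median of 0.64 against 0.0021 for all genes, and 0 of 10 were called in edgeR's test, where 0.0535% of 16831 genes were. For Ttr it was 1.38 (SE 1.10, adjusted p = 0.692) in edgeR's test, with a 95% interval of -1.02 to 3.77, and 0 of 10 members had an unadjusted p under 0.05, against 10.2% of genes. DESeq2 and the likelihood-ratio test called 0 of 10. Without V338Y mouse 18 of 19 months the interaction of Kcnj13 was -0.27. These comparisons share the same groups of mice, so the values for a member are not independent of each other: the high values of V338Y mice 17 and 18 enter the age comparison in V338Y mice, the comparison of genotypes at 19 months and the interaction alike.

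**Figure D4:**
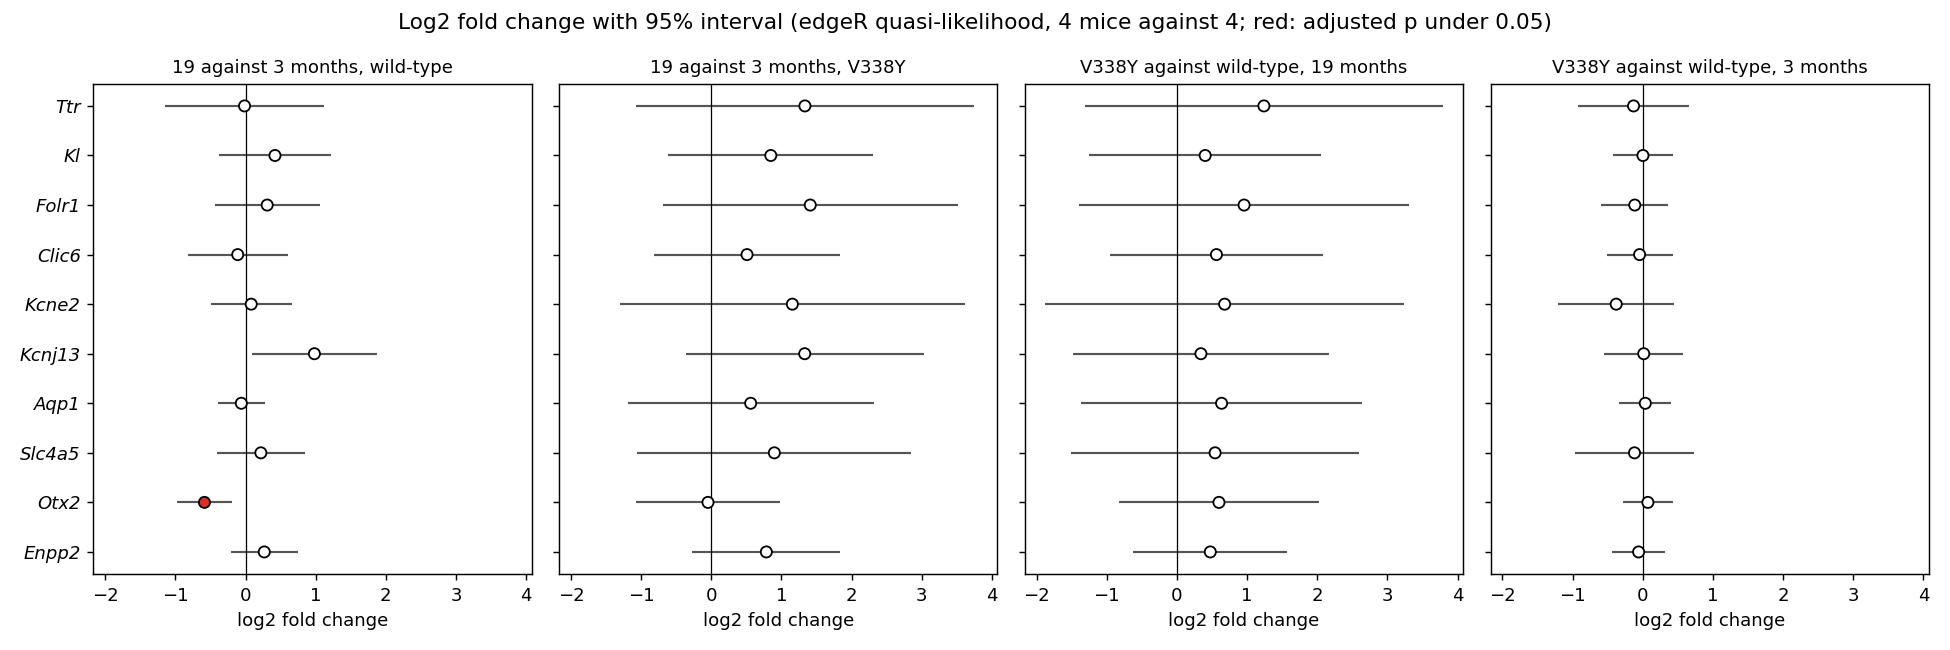
Log2 fold change of each choroid plexus gene with its 95% interval in the 4 pairwise comparisons of 4 mice against 4 (edgeR quasi-likelihood test; filled red where the adjusted p was under 0.05). Otx2 in wild-type mice, 19 against 3 months, is the 1 filled point, and the intervals are widest in both panels that hold the V338Y mice of 19 months.

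The wider choroid plexus list was tested in the same fits. In wild-type mice 28 of 41 tested genes were called between the ages, 26 higher and 2 lower at 19 months, where 31.4% of all genes were called higher and 31.5% lower, and the list's median log2 fold change was 0.72. The 3 higher genes with the lowest adjusted p were Pcolce, Slc12a2 and Ace. Their r with the members over the 16 mice was 0.732, 0.644 and 0.911, against the list's median of 0.87. Pcolce, an enhancer of procollagen processing, was at 7.12 ± 1.33 CPM at 3 months and 21.1 ± 1.94 CPM at 19 months (mean and SD, n = 4), a log2 fold change of 1.65 (SE 0.11, adjusted p = 5.51e-14) in edgeR's test. Slc12a2, the sodium, potassium and chloride cotransporter of the apical membrane, rose by 0.50 (SE 0.04, adjusted p = 2.11e-11) on the log2 scale in edgeR's test, and Ace, the angiotensin-converting enzyme, by 0.96 (SE 0.08, adjusted p = 6.44e-11). The 2 lower genes were the monoamine transporter gene Slc29a4, at -0.45 (SE 0.16, adjusted p = 0.0137) in edgeR's test, and the transcription factor gene Lmx1a, at -0.98 (SE 0.39, adjusted p = 0.0282). Pcolce is also a fibroblast gene, Slc12a2 is used by glia and young neurons and Ace by endothelium, and 13 of 13 meningeal and 10 of 10 endothelial genes were called higher in the same comparison. The part of those cells in the wider list's count was not tested. With all 16 libraries in 1 fit 16 genes of the list were called.

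In V338Y mice 15 of 42 tested genes of the wider list were called between the ages, all higher, where 23.1% of all genes were called higher, and the median log2 fold change was 0.98. The 3 with the lowest adjusted p were Stra6, Baiap2l1 and Slc13a4. Their r with the members over the 16 mice was 0.115, 0.45 and 0.542, against the list's median of 0.87. In the V338Y mice of 19 months Stra6 was at 10.7 to 12.2 CPM, lowest in mouse 17. Stra6, the receptor for retinol-binding protein, was at 3.84 ± 1.07 CPM at 3 months and 11.3 ± 0.6303 CPM at 19 months, a log2 fold change of 1.58 (SE 0.17, adjusted p = 9.35e-06) in edgeR's test. Baiap2l1, a membrane-bending adaptor, rose by 1.54 (SE 0.21, adjusted p = 7.18e-05) on the log2 scale in edgeR's test, and Slc13a4, a sulfate transporter that meningeal cells also use, by 1.19 (SE 0.16, adjusted p = 0.000217). The groups did not overlap for 15 of 42 genes of the list, these 3 among them, where they did not for 44.7% of all genes and 0 of 10 members. The 3 genes were picked by their adjusted p in this comparison, so their separation is a description. In this comparison 12 of 13 meningeal genes were called higher too. Between the genotypes at 19 months 0 of 43 genes of the wider list were called in edgeR's test, where 3.12% of all genes were. An unadjusted p under 0.05 was found for 2 of 43, where 16.2% of all genes had it. At 3 months 0 of 41 were called, where 0.0616% of all genes were, and 0 had an unadjusted p under 0.05, where 5.02% did. The interaction called 0 of 43, where 0.0535% of all genes were called, and 0 had an unadjusted p under 0.05, where 10.2% did. DESeq2 and the likelihood-ratio test called 0 of the list in those 3 comparisons.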

How the data were processed

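RNA-seq libraries of 16 mouse brains were analysed from 1 table of expected counts per gene that the authors deposited, with no normalization; all values were whole, and the 1495 values of 10000 or more all ended in 0, so they had been rounded to 4 significant digits. The study's methods name RSEM, Ensembl annotation and a TruSeq stranded kit, whereas the submitters' processing notes name bcl2fastq 1.8.4, STAR 2.4.2a, featureCounts and GRCm38, so which counter made the values is uncertain. Groups were taken from the labels. All 24 pairs of libraries within a group differed by more than sampling noise (chi-square per degree of freedom 1.87 to 27.1). That the mice are separate animals is given by their numbers.

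Counts were tested with edgeR 4.0.16 in R 4.3.3 (robust quasi-likelihood test, TMM scaling, a filter keeping genes that reached 10 counts in 2 or more of the 4 mice of a group, Benjamini-Hochberg adjustment over all genes kept, adjusted p under 0.05), pair by pair, and with all 16 libraries for the interaction. Standard errors were the log2 fold change divided by the square root of F, and intervals used the t quantile. Log2 CPM used a prior count of 2. Alternatives were DESeq2 1.42.0, a likelihood-ratio test, other scalings and filters, 1 fit over all libraries and leaving out each mouse. The scripts were tested on simulated data. Gene positions and exon lengths came from GENCODE (GRCm38), promoters from RefSeq. All 10 members are named; of the wider list, the 3 genes with the lowest adjusted p in each direction of a comparison; of all genes, the 10 most like the members. The members and lists were chosen with earlier results of these data known.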

Additional observations from a re-analysis of the deposited data

Results flagged for a closer look

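Among 40 combinations of a gene and a group of 4 mice, 2 had 1 mouse far from the other 3, judged by the gap to the nearest mouse as a share of the group's range, both on the log2 CPM scale (Dixon's 95% critical value for 4 mice). For separate cases chance gives about 1 in 20. The 40 combinations are not separate, since the members share mice and move together, so 2 of 40 cannot be judged against that rate. Both concerned Otx2. In V338Y mice at 3 months, mouse 15 was at 4.35 CPM and the other 3 mice at 5.63 to 5.82 CPM (share 0.885). In wild-type mice at 19 months, mouse 12 was at 4.65 CPM and the other 3 at 2.77 to 2.80 CPM (share 0.978), and the same mouse was the highest of its group for 10 of 10 members. The V338Y mice at 19 months were not marked in this way, since their values split into 2 high and 2 low mice.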

How the results depend on the processing

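No paired analysis was possible because the compared groups share at most 1 mouse number, and the labels do not say that a number marks a litter or a batch. Alternatives were other scalings, filters and tests, 1 fit over 16 libraries, and each mouse left out. Under every one, no member tested was called in V338Y mice between the ages, between genotypes at either age or in the interaction. Kcne2 went untested with at least 10 counts in every library wherever wild-type mice of 19 months were compared. Between the ages in wild-type mice the 1 member called became 2 with at least 10 counts in every library, 2 with the likelihood-ratio test and 2 with DESeq2, each time Otx2 and Kcnj13, and 0 with all 16 libraries in 1 fit; leaving out 1 mouse gave 0 to 3. The wider list's 28 calls there became 16 in the fit over 16 libraries, and its 0 calls between genotypes at 19 months became 1 (Slc13a4) without a filter on counts. The share of all genes called was taken in the main fits only, so the counts under other settings have no such share beside them. Whether these changes were particular to the lists cannot be told, and their cause was not tested.

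Of values that passed no threshold in the main fits, these changed sign between settings. In wild-type mice between the ages, the log2 fold change was -0.00816 for Kcne2 with library size only and 0.00909 for Ttr with at least 10 counts in every library. In V338Y mice between the ages, Otx2 was at 0.0108 with the likelihood-ratio test and 0.0294 with DESeq2. Between genotypes at 3 months, Kl was at -0.00259 with the likelihood-ratio test and -0.00264 with DESeq2. With 1 mouse left out, the log2 fold change between the ages in wild-type mice ran from -0.49 to 0.24 for Ttr, -0.15 to 0.47 for Folr1, -0.43 to 0.041 for Clic6, -0.36 to 0.25 for Kcne2, -0.23 to 0.045 for Aqp1 and -0.11 to 0.35 for Slc4a5, and in V338Y mice from -0.40 to 0.23 for Otx2. Between genotypes at 19 months it ran from -0.0022 to 0.76 for Kl, -0.34 to 1.13 for Kcne2, -0.34 to 0.76 for Kcnj13 and -0.028 to 0.93 for Slc4a5. Between genotypes at 3 months it ran from -0.43 to 0.026 for Ttr, -0.22 to 0.11 for Kl, -0.36 to 0.045 for Folr1, -0.27 to 0.11 for Clic6, -0.17 to 0.19 for Kcnj13, -0.064 to 0.14 for Aqp1, -0.48 to 0.15 for Slc4a5, -0.022 to 0.21 for Otx2 and -0.19 to 0.063 for Enpp2. The interaction for Kcnj13 ran from -0.27 to 0.78.

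The ratio of the highest to the lowest mouse moved by less than the spread of the mice in 117 of 120 recalculations with other scalings or with libraries thinned to the smallest total. The counts of the channel and transporter genes, down to 9, limit what can be seen for single mice.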
